A study of Mus musculus with 12 samples.

Results

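Skeletal muscle and liver of the same wild type mice were compared here by the mRNA of their genes, as the baseline against which the series sets a mutation of Mars2. The members were chosen by genotype label alone: the 6 libraries labelled wt, of 12 in the whole series, are 3 of liver and 3 of gastrocnemius, the large calf muscle. All 6 came from female C57BL/6N mice on a chow diet, and the number that opens each title gives 1 liver and 1 gastrocnemius library to each of animals 6, 8 and 9. Animals 6 and 8 were 9.0 weeks old and animal 9 was 7.4 weeks old. The other 6 libraries, from mice with the R135W change in Mars2, are not used here. The labels name no treatment, and they do not say which part of the liver or which head of the muscle was taken.

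Liver is built mainly of hepatocytes, which secrete most plasma proteins, make bile, clear foreign compounds, dispose of nitrogen as urea and release glucose between meals. Gastrocnemius is built of long multinucleate fibres packed with myosin and actin filaments, in which calcium released from the sarcoplasmic reticulum starts contraction and glycogen, fat and creatine phosphate supply the ATP. Mars2 is the methionyl-tRNA synthetase of mitochondria, which loads methionine onto the tRNA that starts and extends the proteins encoded by mitochondrial DNA.

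The liver libraries held 20751583 to 26275128 counts assigned to genes and the gastrocnemius libraries 23992591 to 28669346. Levels are given as TPM, the counts of a gene divided by its exon length and scaled to the same sum in every library, always in the order animal 6, 8, 9. Differences are log2 values, liver minus gastrocnemius, from a fit on counts in which each animal was its own block, with the standard error (SE) and a p-value adjusted over all genes tested. Counts of different genes were therefore compared only as TPM, and a positive log2 difference means higher in liver. A TPM value is a share of the mRNA in a library, so fewer cells of a type and less RNA per cell cannot be told apart in these bulk samples. Nothing in the labels says more of the animals than strain, sex, age and diet. A p-value weighs the tissue difference against how much that difference varies over these 3 animals. The spread of each gene was moderated by that of the other genes tested. Very small p-values therefore rest in part on spread shared across genes.

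Liver transcripts were found at trace level in muscle, and more of them in the muscle library of animal 6. For 42 plasma protein genes at 500 TPM or more in liver, the median level in gastrocnemius was 0.0120% of the same animal's liver level in animal 6, 0.00186% in animal 8 and 0.00134% in animal 9. Of these 42 genes 32 had their highest percentage of the same animal's liver level in animal 6. The number of them at 0 counts was 2, 14 and 18 in the 3 muscle libraries. In the other direction 29 muscle genes stood at medians of 0.000580%, 0.000607% and 0.000800% of their muscle level in the 3 livers. Differences of the most liver-specific genes therefore rest on a few muscle counts. The source of these counts was not tested.

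Of 14858 genes with enough counts to test, 6029 were higher in liver, 40.6% of those tested, and 6004 were higher in gastrocnemius, 40.4%. A test against a 2-fold change was passed by 3649 genes higher in liver, 24.6%, and by 3428 higher in gastrocnemius, 23.1%. The median absolute log2 difference over all tested genes was 1.19, and the signed median was -0.0094. In 12500 genes, 84.1% of those tested, the 3 libraries of each tissue did not overlap. Differences above 32-fold were fitted for 1061 genes higher in liver and 858 higher in gastrocnemius. Counts of list members below are to be read against these shares.

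Defining markers matched the labelled tissues. All 12 of 12 hepatocyte markers were higher in liver, where they summed to 11.2% to 11.3% of TPM against 0.00250% to 0.00397% in gastrocnemius. All 12 of 12 skeletal fibre markers were higher in gastrocnemius, at 19.9% to 21.5% of TPM against 0.000234% to 0.000240% in liver.

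**Figure D1:**
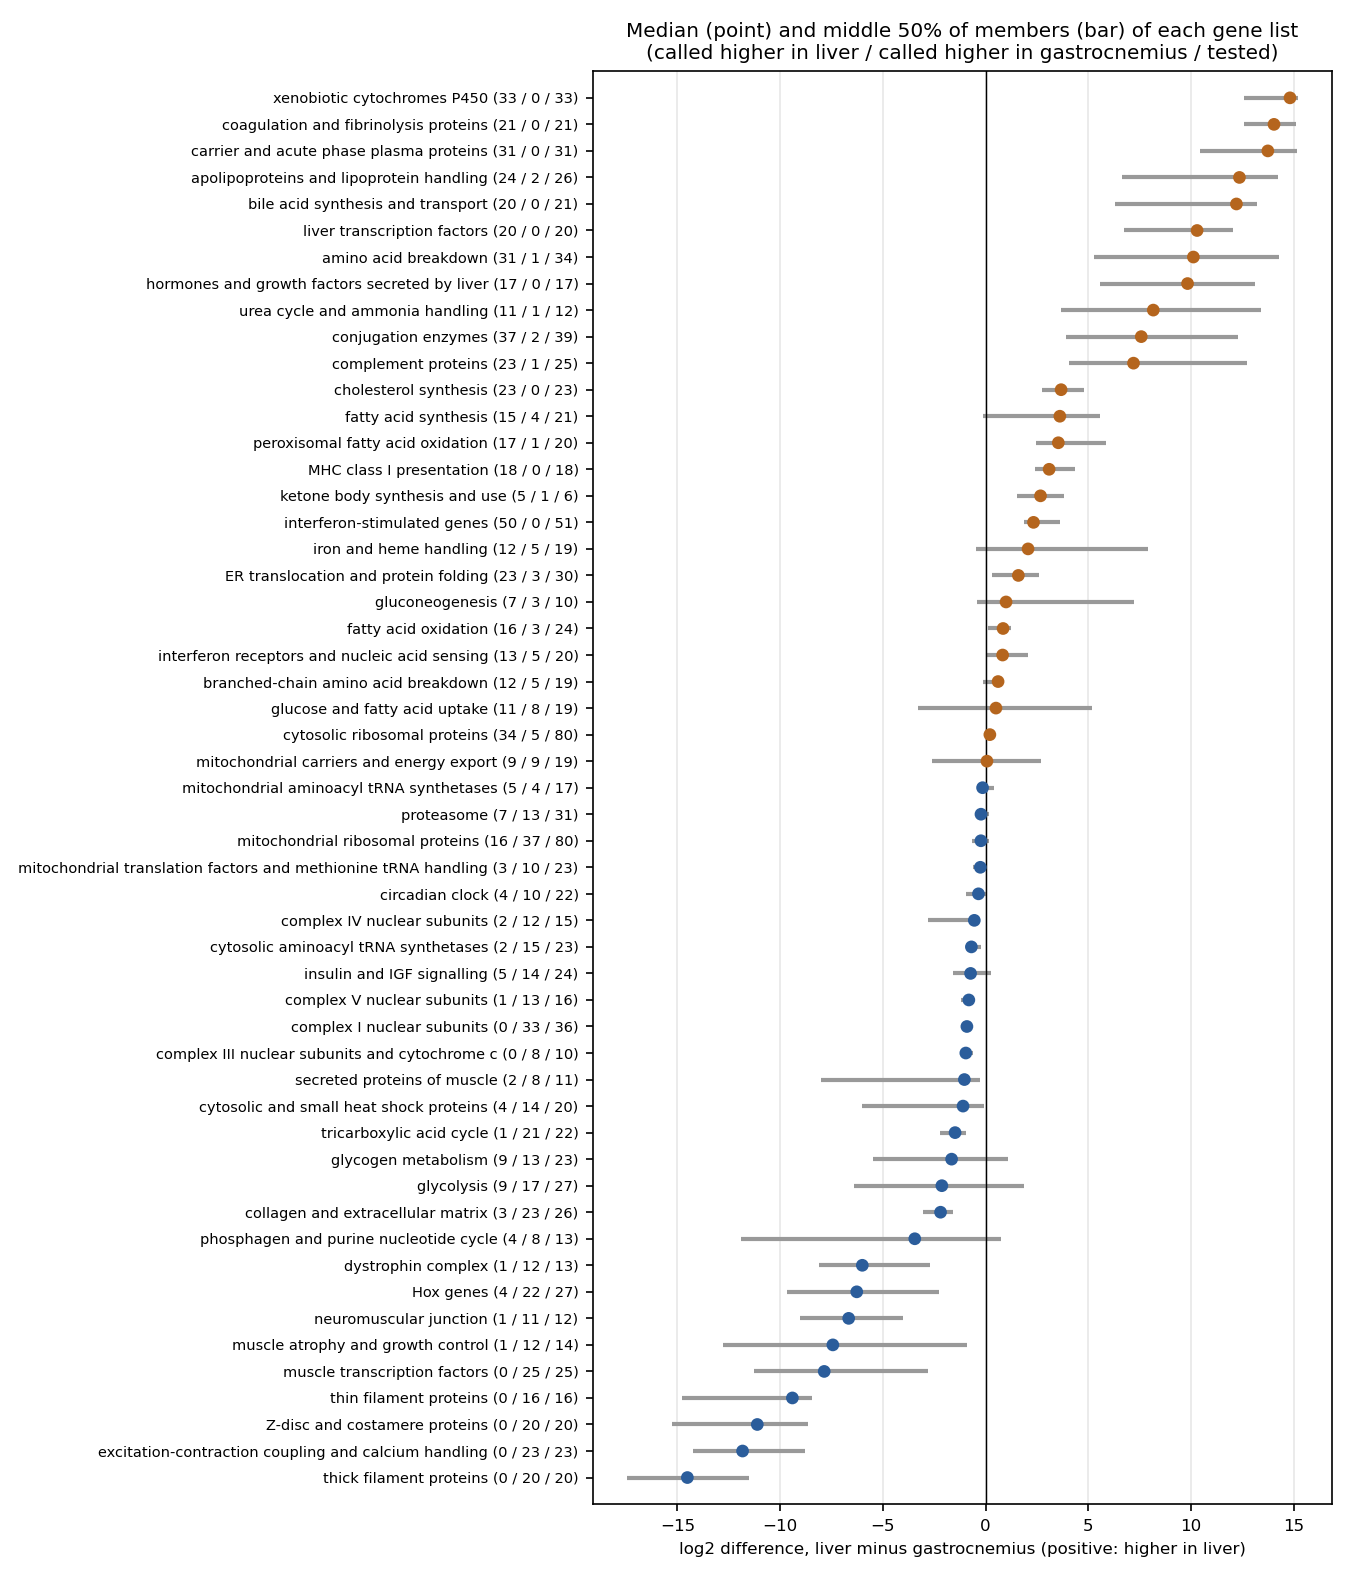
Median log2 difference (liver minus gastrocnemius, x axis) of each gene list as a point, with the middle 50% of its members as a bar. Lists of plasma proteins, drug metabolism and bile acids stand at the liver end, lists of filament and calcium proteins at the muscle end, and the lists of cytosolic and mitochondrial ribosomal proteins near 0.

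Secreted proteins led the liver. Albumin, the main carrier protein of plasma, was the most abundant transcript at 59332, 61523 and 59203 TPM, against 5.54, 0.264 and 0.343 TPM in gastrocnemius (log2 difference 15.65, SE 1.04, adjusted p = 9.65e-08). The tissues were far apart in every animal, and the muscle of animal 6 held far more Alb than the other muscles. Leaving out animal 6 moved the log2 difference of Alb from 15.65 to 17.86. Next in level came apolipoproteins, which package lipids for transport: Apoe at 32655, 24837 and 30453 TPM in liver and 118, 119 and 121 TPM in gastrocnemius (log2 difference 8.21, SE 0.38, adjusted p = 4.05e-09). Apoe was far more even across the muscles than Alb. Apoa2 had 27692, 24085 and 17871 TPM in liver and 2.29, 0.444 and 0 TPM in gastrocnemius, with a log2 difference of 14.97. Apoa1, the main protein of high-density lipoprotein, had 16944, 10842 and 12705 TPM in liver against 1.12, 0 and 0 TPM in muscle, with its muscle counts in animal 6 alone. Its log2 difference was 15.52, and without animal 6 it was at least 114600-fold higher in liver. Ahsg, Ttr and Fabp1 had log2 differences of 15.02, 15.29 and 14.81 and also rested on the muscle counts of animal 6. Without that animal 3 muscle counts of Apoa2 were left, a liver-to-muscle ratio of 105100 with a counting interval of 35960 to 509600. Ahsg had 3 counts left, a ratio of 174300 with an interval of 59640 to 845200. Ttr and Fabp1 had 1 each, with intervals of 49940 to 10990000 and 24990 to 5500000.

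Whole secretory pathways of plasma proteins lay on the liver side. Every one of the 21 coagulation and fibrinolysis proteins tested was higher in liver, with a median log2 difference of 14.04, or 13.35 with genes at 0 counts set at their bound. Fibrinogen transcripts led them: Fga stood at 2252, 2023 and 2102 TPM in liver and 0.0547, 0.0229 and 0.0260 TPM in gastrocnemius (log2 difference 16.07, SE 0.39, adjusted p = 2.99e-11), and Fgb at 4243, 4278 and 4499 TPM in liver and 0.818, 0.147 and 0 TPM in muscle (log2 difference 14.04, SE 0.52, adjusted p = 6.22e-10). Without animal 6 Fgb had 3 muscle counts and a ratio of 67610, with an interval of 23130 to 327800. Prothrombin, F2, had 1890.0, 1834 and 2166 TPM in liver and 0.694, 0.542 and 0.440 TPM in muscle. All 31 carrier and acute phase proteins were higher in liver, with a median of 13.74, or 13.05 with the bounds. Transferrin, Trf, which carries iron, had a clear muscle signal as well, at 9919, 10099 and 10451 TPM in liver and 26.6, 21.6 and 16.3 TPM in gastrocnemius (log2 difference 9.18, SE 0.37, adjusted p = 1.33e-09). Crp and Itih1 had 0 counts in every muscle library and were at least 11290-fold and 22430-fold higher in liver, taking 3 counts over the group as the floor.

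Complement and lipoprotein handling held the exceptions. Of 25 complement genes 23 were higher in liver, with C3, the central component, at 2748, 3039 and 3674 TPM in liver against 23.6, 20.7 and 18.8 TPM in muscle (log2 difference 7.497, SE 0.32, adjusted p = 2e-09). Mbl2, a lectin that starts complement on sugars, had 799, 1059 and 765 TPM in liver and 0 counts in gastrocnemius, at least 13140-fold higher. Cfd, complement factor D and a product of fat cells, went the other way at 0.0932, 0.881 and 0.159 TPM in liver and 158, 164 and 174 TPM in gastrocnemius (log2 difference -8.54, SE 0.30, adjusted p = 3.66e-10), and its log2 difference was -9.94 without animal 8. C7 was low and did not pass the test, at 0.287, 0.469 and 0.353 TPM in liver and 0.373, 0.597 and 0.614 TPM in muscle. Of 26 apolipoprotein and lipoprotein genes 24 were higher in liver. Both exceptions act on the vessel wall of tissues that take up fat: lipoprotein lipase, Lpl, had 6.51, 4.06 and 4.79 TPM in liver and 467, 426 and 375 TPM in gastrocnemius (log2 difference -6.11, SE 0.19, adjusted p = 1.96e-10). Its anchor Gpihbp1 had 52.5, 25.9 and 32.8 TPM in liver and 77.2, 77.8 and 89.3 TPM in muscle, a smaller difference that did not pass the 2-fold test (log2 difference -0.91, SE 0.19, adjusted p = 0.000921). These exceptions, like others named below within a list count, were picked after their values were seen.

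**Figure D2:**
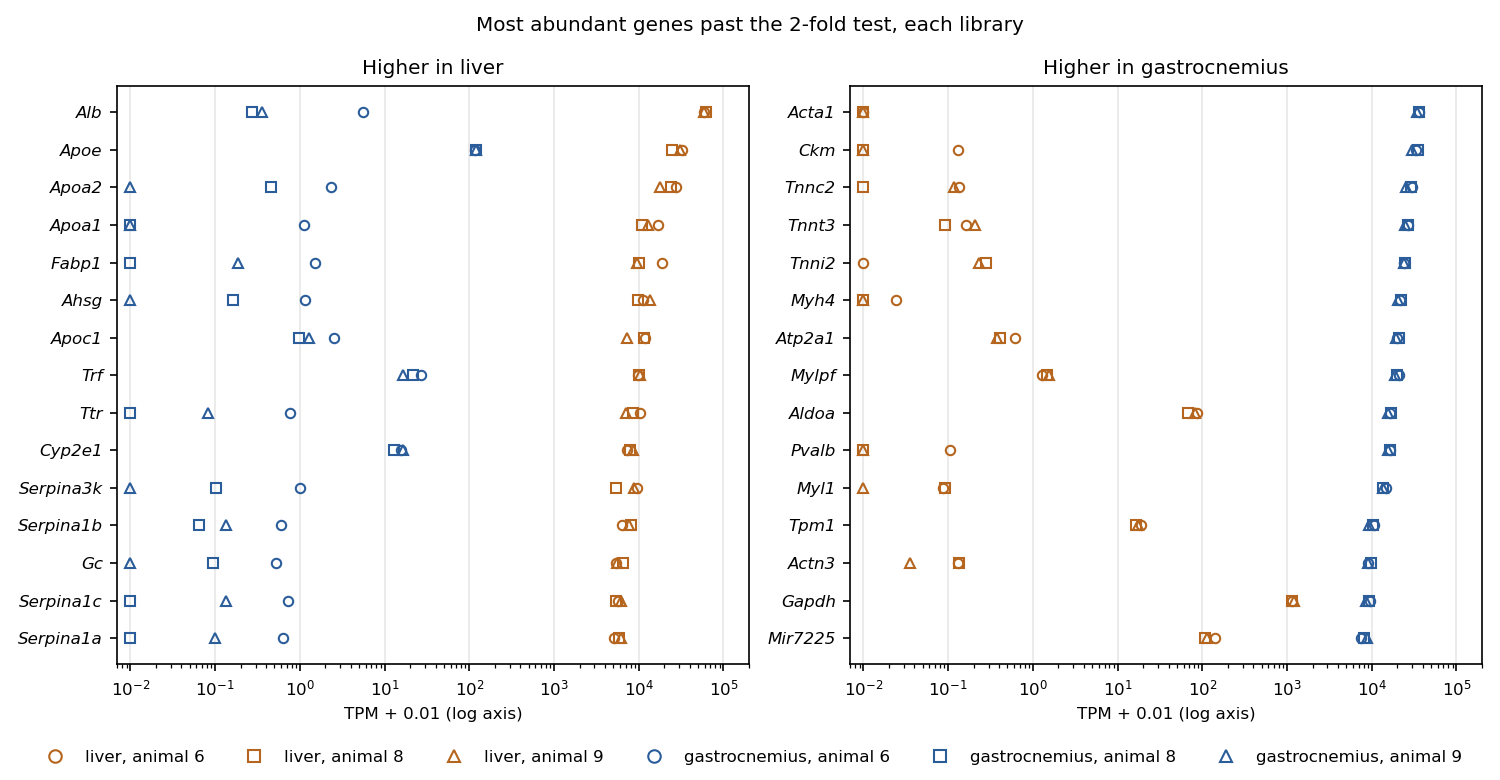
TPM plus 0.01 (log axis) of the 15 most abundant genes of each tissue among those past the 2-fold test, with 1 point per library. For most of these genes the points of the tissues are orders of magnitude apart, and the muscle of animal 6 lies above the other muscles for Alb, Apoa2 and Apoa1.

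Nitrogen and amino acid metabolism was a liver programme at the mRNA level. Of 12 urea cycle and ammonia genes 11 were higher in liver. Cps1, which makes carbamoyl phosphate at the entry of the cycle, had 587, 1214 and 1345 TPM in liver and 0.0992, 0.0277 and 0 TPM in gastrocnemius (log2 difference 14.82, SE 0.50, adjusted p = 2.78e-10). Without animal 6 Cps1 had 2 muscle counts and a ratio of 104800, with an interval of 29020 to 865800. Arg1, which splits off urea, had 1512, 2299 and 2022 TPM in liver and 0.187, 0.156 and 0.296 TPM in muscle (log2 difference 13.40, SE 0.30, adjusted p = 2.56e-11). In liver both were lowest in animal 6, as was Ass1 at 1726, 4078 and 4288 TPM, though no library of muscle came near them. Gls2, the liver-type glutaminase, had 178, 379.9 and 310.1 TPM in liver and 0.813, 0.774 and 0.668 TPM in muscle.

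Amino acid breakdown genes were higher in liver in 31 of 34, with a median log2 difference of 10.11. Hpd, of tyrosine breakdown, had 2674, 3539.7 and 3960.5 TPM in liver and 2 counts in all muscle libraries, a ratio of 99410 with a counting interval of 27520 to 820800. Bhmt, which remakes methionine from homocysteine, had 1298, 3328 and 3253 TPM in liver and 0.222, 0.0372 and 0.0423 TPM in gastrocnemius. Gnmt, which uses up methyl groups, had 1649, 3228 and 3149 TPM in liver and 2.94, 4.48 and 4.92 TPM in gastrocnemius. Among livers both were lowest in animal 6. Got1, the cytosolic aspartate aminotransferase of the malate-aspartate shuttle, was the only member called in gastrocnemius (2 were with libraries scaled as TPM, an alternative chosen after seeing the data), at 138, 347 and 236 TPM in liver and 458, 432 and 444 TPM in gastrocnemius (log2 difference -0.71, SE 0.22, adjusted p = 0.0112). Its adjusted p was 0.058 without the replicate block and 0.0607 without animal 6.

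The branched-chain amino acids, which muscle is known to transaminate, showed a mixed list: 12 of 19 genes higher in liver and 5 higher in gastrocnemius, with a median of 0.61. Bckdk, the kinase that restrains their oxidation, was far higher in gastrocnemius at 136, 145 and 145 TPM, against 9.47, 7.97 and 8.23 TPM in liver (log2 difference -3.78, SE 0.14, adjusted p = 5.06e-10). Bckdha, a subunit of the enzyme it acts on, leaned to liver at 294, 283 and 306 TPM in liver and 189, 221 and 203 TPM in muscle (log2 difference 0.81, SE 0.13, adjusted p = 0.000172). Without animal 9 the count higher in gastrocnemius was 3.

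Detoxification and bile acid genes lay almost wholly in liver. All 33 xenobiotic cytochromes P450 were higher there, with a median of 14.82, or 13.95 with bounds, and 37 of 39 conjugation enzymes. Cyp2e1, which oxidises ethanol and small solvents, led with 7331, 7976 and 8653 TPM and kept a low but steady level in muscle, 15.6, 12.9 and 16.4 TPM (log2 difference 9.34, SE 0.31, adjusted p = 2.6e-10). Cyp1a2 had 543, 639.6 and 832 TPM in liver and 0 counts in muscle. The 2 conjugation enzymes higher in gastrocnemius were glutathione transferases, Gstp2 at 29.9, 22.4 and 23.6 TPM in liver and 184, 178 and 173 TPM in muscle (log2 difference -2.55, SE 0.13, adjusted p = 7.55e-09) and Gstm5 at 16.8, 20.4 and 17.1 TPM in liver and 116, 111 and 125 TPM in muscle (log2 difference -2.42, SE 0.13, adjusted p = 1.04e-08). P450 and transferase genes include near-identical copies between which reads could not be split with certainty. Of 21 bile acid genes 20 were higher in liver and none in gastrocnemius. Cyp7a1, the rate-limiting enzyme of bile acid synthesis, had 3.11, 47.8 and 31.5 TPM in liver, with animal 6 far below the other livers, and 0 counts in muscle, at least 1624-fold higher in liver.

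Lipid synthesis also leaned to liver, by smaller factors. All 23 cholesterol synthesis genes were higher in liver with a median of 3.68. Fdps, which makes farnesyl diphosphate, had 202, 306 and 292 TPM in liver against 31.8, 28.5 and 32.6 TPM in muscle (log2 difference 3.36, SE 0.16, adjusted p = 4.33e-09). Of 21 fatty acid synthesis genes 15 were higher in liver and 4 in gastrocnemius. Scd1, the stearoyl-CoA desaturase, had 1369.5, 3234 and 1835 TPM in liver and 46.5, 63.2 and 46.1 TPM in gastrocnemius (log2 difference 5.57, SE 0.27, adjusted p = 5.34e-09). Scd1 and its companion Thrsp, at 383, 1266 and 1084 TPM in liver, were again lowest in the liver of animal 6. The hepatokine Fgf21, a hormone of fasting, went the other way among livers, at 53.7, 5.08 and 4.81 TPM and 0 counts in all muscles. The place of animal 6 among the livers was noted after the values were seen, and the share of all genes lowest in that liver was not counted. The time of day and the last meal of the animals are not in the labels.

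Fat oxidation was shared. Of 24 mitochondrial fatty acid oxidation genes 16 were higher in liver and 3 in gastrocnemius, with a median of 0.85 and only 7 and 2 past the 2-fold test. The 3 became 6 with libraries scaled as TPM and 5 under upper quartile scaling. Acaa2, a thiolase, had 1422, 1019 and 1261 TPM in liver and 269, 248 and 254 TPM in gastrocnemius (log2 difference 2.53, SE 0.16, adjusted p = 7.03e-08). Peroxisomal oxidation was more lopsided, with 17 of 20 higher in liver and a median of 3.54. Of 6 ketone body genes 5 were higher in liver. Oxct1, which lets tissues use ketone bodies, was the exception and had 1.44, 2.03 and 1.88 TPM in liver and 308, 310.3 and 298 TPM in gastrocnemius (log2 difference -7.15, SE 0.18, adjusted p = 3.83e-11).

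Contractile genes filled the muscle end of the comparison. All 20 thick filament, 16 thin filament and 20 Z-disc genes were higher in gastrocnemius, with medians of -14.51, -9.40 and -11.11, or -13.67, -9.40 and -10.83 with genes at 0 liver counts set at their bound. Thin filament genes alone made up 12.4% to 13.6% of TPM in gastrocnemius. Skeletal alpha-actin, Acta1, the core of the thin filament, led with 36219, 35940.0 and 33746 TPM and had 0 counts in every liver library, at least 554100-fold lower there. Creatine kinase, Ckm, which moves phosphate from creatine phosphate to ADP, had 33213, 35002 and 30244 TPM and 2 liver counts in all, a ratio of 697600 with a counting interval of 193100 to 5760000. The calcium sensor of fast fibres, Tnnc2, had 30170.0, 29361 and 25456 TPM and also 2 liver counts, a ratio of 293800 with an interval of 81340 to 2426000. For each of these genes the 3 muscles were close to each other.

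The myosin heavy chains gave the fibre make-up of the muscle at the mRNA level. Of the summed TPM of 6 heavy chain genes, Myh4, the fastest type IIb chain, held 86.8% ± 1.46 (SD, n = 3). Myh1, type IIx, held 6.50% ± 1.07, Myh2, type IIa, 5.01% ± 0.227 and Myh7, the slow type I chain, 1.35% ± 0.196. Myh4 had 21674, 22198 and 20474 TPM and 1 count in all livers. Myh1 had 1387, 1572 and 1849 TPM and 0 liver counts, at least 96450-fold lower there. The slow troponin Tnni1 was present at 168, 189.9 and 199.8 TPM, against 24314, 24852 and 23851 TPM of the fast troponin Tnni2. The slow light chain Myl2 had 707, 737 and 772 TPM.

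Calcium and energy supply genes followed the same pattern. All 23 excitation-contraction coupling genes tested were higher in gastrocnemius, 22 of them past the 2-fold test. Atp2a1, the calcium pump of fast sarcoplasmic reticulum, had 19929, 21144 and 19436 TPM in gastrocnemius and 0.603, 0.396 and 0.363 TPM in liver (log2 difference -15.17, SE 0.57, adjusted p = 6.56e-10). Parvalbumin, Pvalb, which soaks up calcium in fast fibres, had 16499, 16331 and 15409 TPM and 1 liver count. The release channel Ryr1 had 961, 1057 and 1089 TPM in gastrocnemius and 0.00563, 0.0177 and 0.0335 TPM in liver (log2 difference -15.37, SE 0.44, adjusted p = 9.75e-11), or -16.09 without animal 9. Its neighbour in the junction, Jsrp1, had 655, 704 and 747 TPM and 0 liver counts, at least 7832-fold lower in liver. In the phosphagen and purine nucleotide list 8 of 13 genes were higher in gastrocnemius and 4 in liver. Ckmt2, the mitochondrial creatine kinase, had 1583, 1638 and 1670.5 TPM and 0 liver counts, at least 24210-fold lower in liver. Ampd1, the muscle AMP deaminase, had 1139, 1154 and 1249 TPM and 1 liver count.

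Genes of nerve contact, membrane support and fibre size were mostly on the muscle side. Of 12 neuromuscular junction genes 11 were higher in gastrocnemius. Rapsn, which clusters acetylcholine receptors, had 43.7, 47.5 and 48.7 TPM in gastrocnemius against 0.107, 0 and 0.0907 TPM in liver (log2 difference -9.03, SE 0.29, adjusted p = 2.35e-10). Lrp4, the agrin receptor, was the exception, at 7.00, 6.17 and 8.61 TPM in liver and 4.76, 4.495 and 4.49 TPM in gastrocnemius (log2 difference 0.93, SE 0.13, adjusted p = 6e-05). Of 13 dystrophin complex genes 12 were higher in gastrocnemius, as were 12 of 14 genes of atrophy and growth control. Among the latter Trim63, the ubiquitin ligase MuRF1, had 554, 459 and 346 TPM and 2 liver counts, while Klf15, a glucocorticoid target, was higher in liver at 138, 168 and 183 TPM in liver and 80.2, 79.1 and 71.7 TPM in muscle (log2 difference 1.35, SE 0.14, adjusted p = 4.02e-06). Myostatin, Mstn, which limits muscle growth, had 61.3, 67.5 and 74.1 TPM and 0 liver counts, at least 1814-fold lower in liver. Musclin, Ostn, had 48.1, 48.3 and 16.8 TPM, lowest in animal 9, and 0 liver counts.

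The transcription factors that define each tissue divided without exception. All 20 liver factors were higher in liver, with a median of 10.29, or 8.78 with bounds. Hnf4a, which sustains hepatocyte identity, had 312, 264 and 368 TPM in liver and 3 counts in all muscles, a ratio of 19700 with an interval of 6742 to 95550. Cebpa had 294, 240.5 and 321 TPM in liver and 6.69, 7.15 and 6.73 TPM in gastrocnemius (log2 difference 5.64, SE 0.18, adjusted p = 1.64e-10). All 25 muscle factors tested were higher in gastrocnemius, with a median of -7.85, or -7.00 with bounds. Mef2c had 261, 253 and 264 TPM in gastrocnemius against 1.11, 0.926 and 0.761 TPM in liver (log2 difference -7.85, SE 0.20, adjusted p = 4.03e-11), and Myf6, the myogenic factor of mature fibres, had 127, 121 and 136 TPM and 0 liver counts, at least 1592-fold lower in liver.

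Hox genes, which record position along the body axis, were divided between the tissues. Of 27 tested, 22 were higher in gastrocnemius and 4 in liver. Hoxc10 had 64.9, 71.2 and 77.3 TPM and 0 liver counts, at least 1361-fold lower in liver, and Hoxa10 and Hoxd9 also had 0 liver counts. In muscle Hoxa10 had 16.4, 14.3 and 15.1 TPM and Hoxd9 17.4, 18.3 and 16.6 TPM. The 4 higher in liver were Hoxb2, Hoxb3, Hoxb4 and Hoxb5, all low. Hoxb4 was the only one of them past the 2-fold test, at 2.02, 2.55 and 1.95 TPM in liver and 0.287, 0.480 and 0.716 TPM in gastrocnemius (log2 difference 2.41, SE 0.31, adjusted p = 2.38e-05). Hoxb5 overlapped between the tissues, at 1.32, 0.766 and 0.930 TPM in liver and 0.631, 0.487 and 0.923 TPM in muscle (log2 difference 0.83, SE 0.34, adjusted p = 0.0421). The number of Hox genes higher in liver was 2 without animal 8.

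The promoters of 4 leading genes of liver and 3 of muscle show what their 250 bases before the transcript start hold, and that of Mars2 stands beside them. These genes were picked by hand and not by rank, so they do not show how common a motif is. Sequences and start sites are those of RefSeq on GRCm38.p6, where 10651 of the 14858 tested genes had such a promoter, and each is written 5′ to 3′ on the strand of its gene. Capitals mark the motifs searched: TATAAA on the given strand and, on both strands, GTTAAT (the core of the HNF1 motif), CAGCTG (an E-box), AAGGTCA (a nuclear receptor motif), GGGCGG (a GC box), and the CArG and MEF2 boxes by name. Motifs that overlap share their capitals.
Alb, chr5:90460620-90460869, plus strand: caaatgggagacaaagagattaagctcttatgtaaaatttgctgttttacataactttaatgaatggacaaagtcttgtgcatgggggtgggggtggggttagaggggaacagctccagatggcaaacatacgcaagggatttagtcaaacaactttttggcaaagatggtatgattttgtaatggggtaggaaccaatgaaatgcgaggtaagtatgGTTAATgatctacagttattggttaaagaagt
Apoa2, chr1:171224804-171225053, plus strand: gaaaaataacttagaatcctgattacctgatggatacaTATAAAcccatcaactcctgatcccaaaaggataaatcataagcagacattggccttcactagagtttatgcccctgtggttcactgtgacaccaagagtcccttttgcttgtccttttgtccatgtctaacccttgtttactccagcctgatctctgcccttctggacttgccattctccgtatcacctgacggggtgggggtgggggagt
Fabp1, chr6:71199629-71199878, plus strand: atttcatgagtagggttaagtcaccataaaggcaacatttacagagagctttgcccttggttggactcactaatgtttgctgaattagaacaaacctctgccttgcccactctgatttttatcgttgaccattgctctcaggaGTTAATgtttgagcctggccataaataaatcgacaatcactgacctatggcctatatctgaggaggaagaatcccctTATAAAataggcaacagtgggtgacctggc
Serpina1c, chr12:103904951-103905200, minus strand: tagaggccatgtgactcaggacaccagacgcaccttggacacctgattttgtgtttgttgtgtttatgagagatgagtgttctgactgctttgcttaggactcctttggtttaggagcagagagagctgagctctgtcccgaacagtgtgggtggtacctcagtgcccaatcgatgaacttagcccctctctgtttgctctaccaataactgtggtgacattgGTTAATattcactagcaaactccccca
Acta1, chr8:123894776-123895025, minus strand: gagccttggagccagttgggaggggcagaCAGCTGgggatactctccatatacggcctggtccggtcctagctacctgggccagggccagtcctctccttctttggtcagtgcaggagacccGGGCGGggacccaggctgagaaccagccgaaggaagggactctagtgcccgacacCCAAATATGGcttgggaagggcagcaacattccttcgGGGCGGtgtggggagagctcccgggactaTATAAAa
Ckm, chr7:19410844-19411093, plus strand: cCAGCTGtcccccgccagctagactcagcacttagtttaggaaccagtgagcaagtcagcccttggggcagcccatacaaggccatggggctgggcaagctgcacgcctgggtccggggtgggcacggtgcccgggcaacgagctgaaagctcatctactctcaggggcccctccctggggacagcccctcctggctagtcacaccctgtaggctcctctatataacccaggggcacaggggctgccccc
Myh4, chr11:67237562-67237811, plus strand: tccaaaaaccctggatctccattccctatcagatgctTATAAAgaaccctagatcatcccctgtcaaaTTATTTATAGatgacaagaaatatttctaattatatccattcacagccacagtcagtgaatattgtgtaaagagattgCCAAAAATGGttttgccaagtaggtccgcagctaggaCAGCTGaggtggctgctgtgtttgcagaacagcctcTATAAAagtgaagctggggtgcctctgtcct
Mars2, chr1:55236927-55237176, plus strand: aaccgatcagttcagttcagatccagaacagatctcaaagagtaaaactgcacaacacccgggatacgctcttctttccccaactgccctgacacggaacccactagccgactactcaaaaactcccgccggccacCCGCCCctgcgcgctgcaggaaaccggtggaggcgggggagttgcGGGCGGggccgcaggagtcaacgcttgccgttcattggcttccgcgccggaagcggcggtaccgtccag

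In the Alb promoter the capitals mark GTTAAT, 32 to 27 bases before the start. Fabp1 has GTTAAT at 107 to 102 and TATAAA at 30 to 25 bases before its start, and Serpina1c has GTTAAT at 27 to 22. Apoa2 has TATAAA at 212 to 207 bases before its start and no GTTAAT in this window. Acta1 has an E-box at 221 to 216, GC boxes at 128 to 123 and 36 to 31, a CArG box at 73 to 64 and TATAAA at 7 to 2 bases before its start. Ckm has an E-box at 249 to 244 and no CArG or MEF2 box in this window. Myh4 has TATAAA at 213 to 208 and 31 to 26, a MEF2 box at 182 to 173, a CArG box at 104 to 95 and an E-box at 67 to 62 bases before its start. Mars2 has GC boxes at 114 to 109 and 69 to 64 bases before its start, and no other motif of those searched was in this window.

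Counted over genes, GTTAAT was present in 19 of 61 promoters of the plasma protein lists, 31.2%, against 4.11% of all tested promoters and 2.38% of the 42 promoters of thick filament, thin filament and Z-disc genes. The CArG box was in 14.3% of those muscle promoters against 1.09% of all, the MEF2 box in 19.1% against 1.83%, and CAGCTG in 28.6% against 12.0%. GGGCGG was in 8.20% of plasma protein promoters, 35.7% of the muscle promoters and 57.2% of all. Over all genes past the 2-fold test, the shares lay closer to those of all promoters: GTTAAT was in 6.70% of liver and 3.46% of muscle promoters, and CAGCTG in 12.3% and 15.3%. Median GC content was 48.0% in plasma protein promoters and 59.6% in all, so the base composition differed too. A match of letters is a description, with no measure of binding in these data.

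Glycolysis leaned to muscle, with members on both sides. Of 27 glycolysis genes 17 were higher in gastrocnemius and 9 in liver, with a median of -2.13. Summed over isoenzymes, the 9 steps compared here all came out higher in gastrocnemius, in every animal. Phosphofructokinase, the committed step, came to 33.91 ± 3.997 TPM in liver and 2887 ± 72.1 TPM in gastrocnemius, 85.1-fold. Phosphoglycerate mutase was 45.9-fold, enolase 17.3-fold and pyruvate kinase 16.2-fold higher in gastrocnemius on the TPM scale. Phosphoglycerate kinase was 5.27-fold higher, the smallest ratio of these 9 steps. Glycogen phosphorylase, which frees glucose units from glycogen, was 19.95-fold higher in gastrocnemius and glycogen synthase 2.66-fold.

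**Figure D3:**
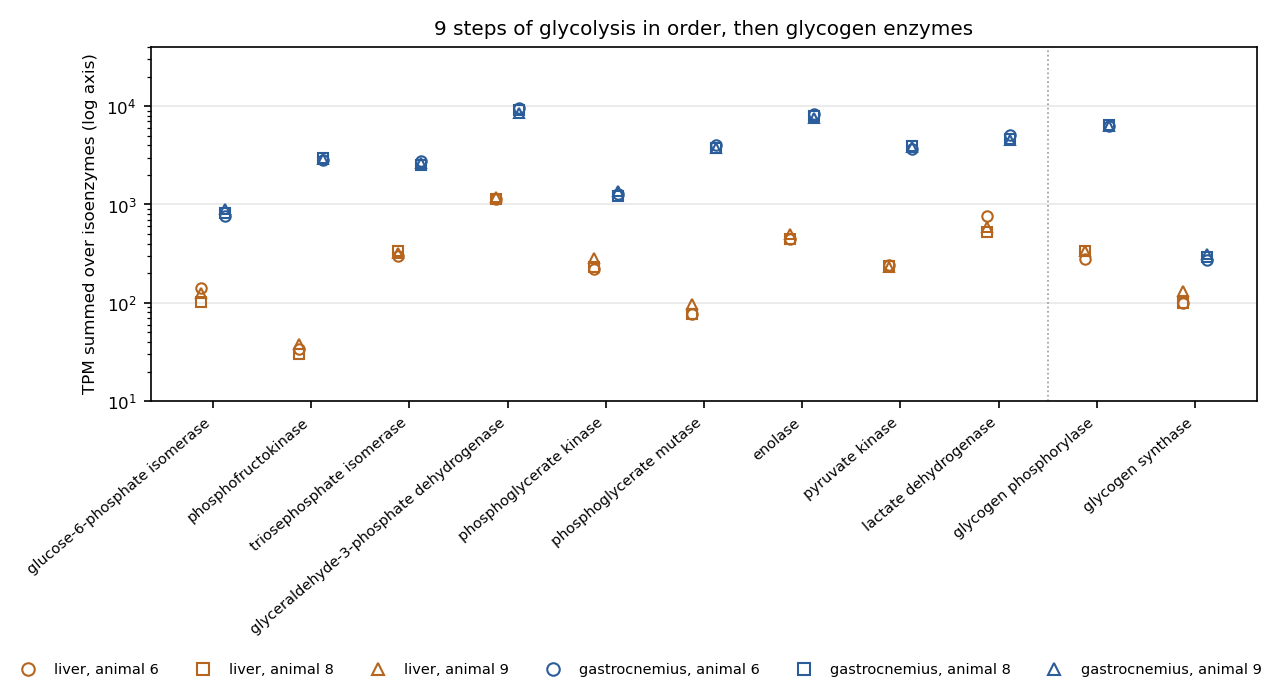
TPM summed over the isoenzymes of 9 steps of glycolysis and 2 of glycogen use, on a log axis, with 1 point per library. The tissues stand apart at all steps shown, by 85.1-fold at phosphofructokinase and 5.27-fold at phosphoglycerate kinase.

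Behind these sums stood different genes. In 28 pairs of isoenzymes or paralogous subunits compared as shares of the pair's TPM, the majority gene switched between tissues in 26, and the share moved by more than 50 points in 24 and by more than 90 points in 19. The pairs had been chosen with tissue forms known from textbooks, so the switch is a description. Hk2, a hexokinase of muscle, had 0.533, 0.576 and 0.520 TPM in liver and 138, 166 and 182 TPM in muscle (log2 difference -7.94, SE 0.18, adjusted p = 2.56e-11). The glucose transporters Slc2a2, at 156, 229 and 208 TPM in liver and 0 counts in muscle, and Slc2a4, the insulin-responsive form, at 456, 498 and 514 TPM in gastrocnemius and 0.245, 1.42 and 0.208 TPM in liver, changed places fully.

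Switches also ran through glycogen, mitochondria and the ribosome. Pygm held 100.0% of its pair with Pygl in gastrocnemius and 0.334% in liver, and Gys1 100.0% and 1.99% of its pair with Gys2. In the respiratory chain the heart and muscle forms Cox6a2 and Cox8b held 95.2% ± 0.419 and 94.8% ± 0.358 of their pairs in gastrocnemius, and 0.0199% and 0.0328% in liver. Cox7a1 held 74.4% ± 3.25 of its pair with Cox7a2 in gastrocnemius. Cox7a2 itself did not pass the test, at 243, 240.4 and 214 TPM in liver and 311, 281 and 277 TPM in gastrocnemius (log2 difference -0.043, SE 0.11, adjusted p = 0.724), but did when libraries were scaled as TPM in place of TMM factors, at -0.32 (adjusted p = 0.0205). Slc25a4, the adenine nucleotide translocase of muscle, held 99.1% of its pair with Slc25a5 in gastrocnemius and 2.01% in liver. Rpl3l, a muscle copy of ribosomal protein L3, held 91.5% ± 0.894 of its pair with Rpl3 in gastrocnemius. The elongation factor followed suit outside these pairs: Eef1a2 had 1661, 1821 and 1850.5 TPM in gastrocnemius and 0 counts in liver.

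Pairs that did not switch were Ldha with Ldhb and Acaca with Acacb. Ldha held 99.5% of the lactate dehydrogenase pair in liver and 90.5% ± 1.19 in gastrocnemius, and it was the only pair in which the gene named for muscle took a smaller share there. Ldhb had 3.95, 2.74 and 2.73 TPM in liver and 423, 502 and 420.3 TPM in gastrocnemius (log2 difference -6.88, SE 0.19, adjusted p = 7.48e-11). Acacb, the acetyl-CoA carboxylase of the mitochondrial surface, held 58.1% ± 3.09 in liver and 94.8% ± 0.236 in gastrocnemius. Pdk4, which shuts pyruvate dehydrogenase when fat is burned, differed between muscles, at 1115, 516 and 651 TPM in gastrocnemius and 13.1, 6.41 and 4.47 TPM in liver (log2 difference -6.36, SE 0.23, adjusted p = 4.24e-10). It was highest in animal 6 in both tissues. Shares rest on exon length, and by counts in place of TPM the majority gene was the same in 27 of 28 pairs; Gpt2 held 35.7% of its pair with Gpt in liver by TPM and 53.2% by counts.

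**Figure D4:**
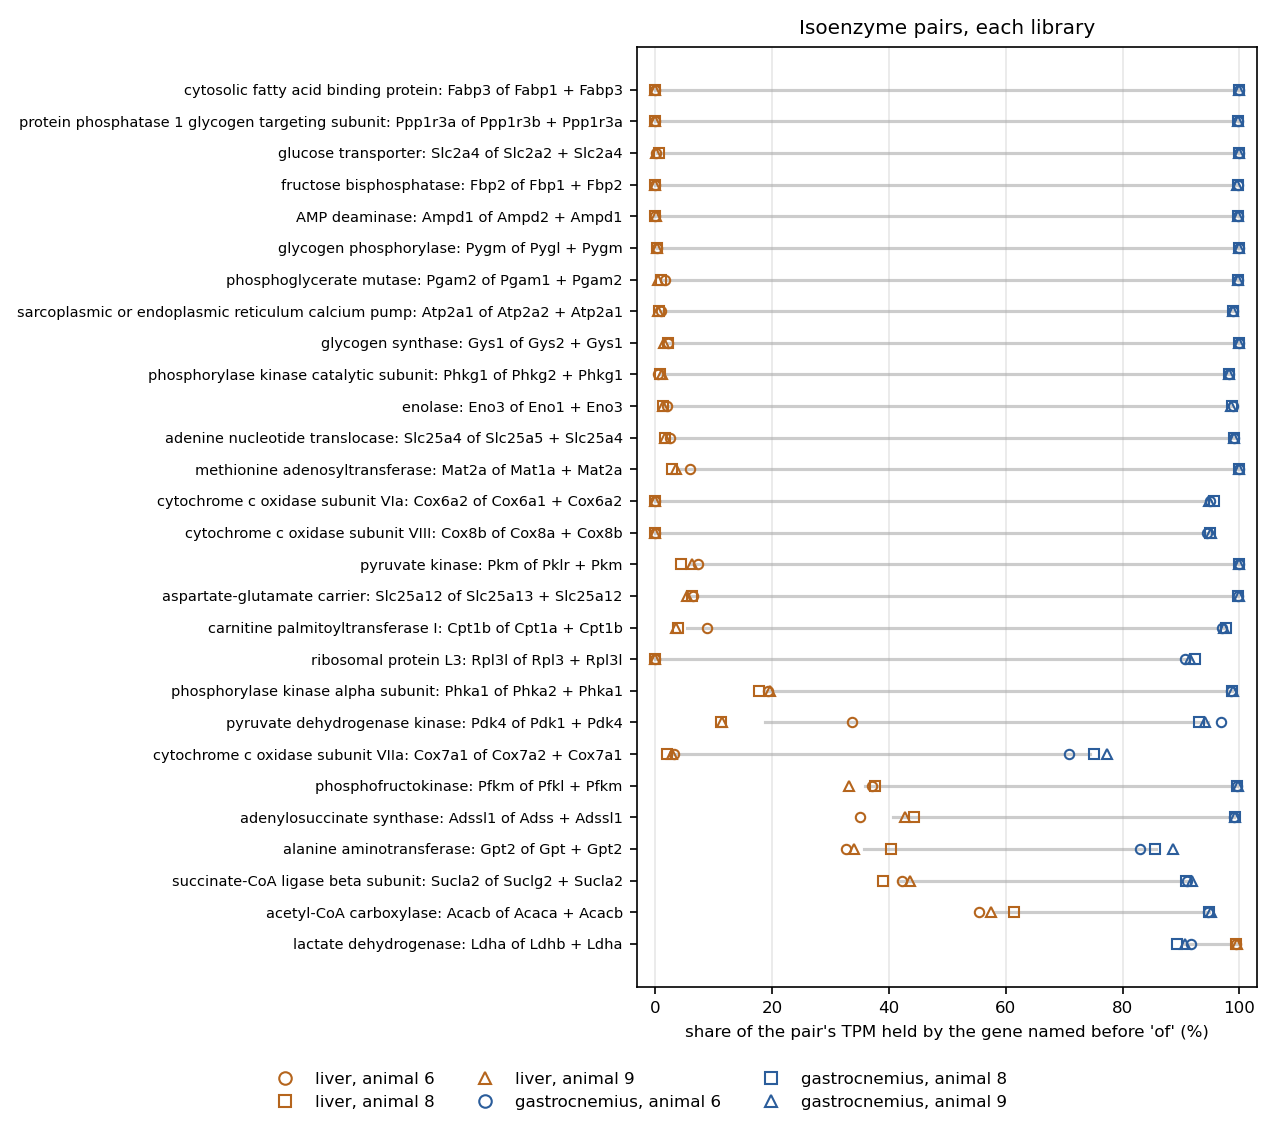
Share (percent of the pair's TPM) of the second-named gene of 28 pairs in liver and gastrocnemius, with 1 point per library. The tissues stand at opposite ends for 19 pairs, and lactate dehydrogenase stays near 100% in both.

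Mitochondrial genes differed by small factors, mostly towards gastrocnemius. Of 22 tricarboxylic acid cycle genes 21 were higher in gastrocnemius, with a median of -1.48. The exception was Suclg2, the GTP-forming subunit of succinate-CoA ligase, at 126, 166 and 137 TPM in liver and 53.5, 54.8 and 50.9 TPM in muscle (log2 difference 1.70, SE 0.13, adjusted p = 2.48e-07). Of 36 nuclear subunits of complex I, 33 were higher in gastrocnemius and none in liver, with a median of -0.91. Complex III together with cytochrome c had 8 of 10, complex IV 12 of 15 and complex V 13 of 16 higher in gastrocnemius. Their medians were -0.96, -0.55 and -0.82. Atp5b, the catalytic subunit of ATP synthase, had 977, 985 and 1176 TPM in liver and 3337, 3492 and 3488 TPM in gastrocnemius (log2 difference -1.45, SE 0.19, adjusted p = 3.19e-05). Cox6a1 and Cox8a, the liver forms of 2 complex IV subunits, were higher in liver. Cox6a1 had 1373, 879 and 1199 TPM in liver and 87.99, 81.9 and 90.97 TPM in gastrocnemius (log2 difference 3.98, SE 0.16, adjusted p = 1.15e-09). Genes of mitochondrial DNA itself were not analysed here.

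The machinery that translates the mRNAs of mitochondrial DNA was divided between the tissues. Of 80 mitochondrial ribosomal proteins 37 were higher in gastrocnemius and 16 in liver, with a median of -0.23 and none past the 2-fold test in liver. Mrpl42 led, at 91.6, 110.1 and 84.2 TPM in liver and 519, 496 and 478 TPM in gastrocnemius (log2 difference -2.12, SE 0.12, adjusted p = 2.2e-08). Of 23 mitochondrial translation factors and genes of methionine tRNA handling 10 were higher in gastrocnemius and 3 in liver. With libraries scaled as TPM the 10 became 17. Of 17 mitochondrial aminoacyl-tRNA synthetases 4 were higher in gastrocnemius and 5 in liver, with a median of -0.15, so that on either side the share called was below that of all genes. The 16 ribosomal proteins higher in liver became 7 on the TPM scale, 9 under upper quartile scaling and 10 without animal 9, and the 4 synthetases higher in gastrocnemius became 2 without animal 9 and with DESeq2.

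Mars2 itself stood apart within that group. It lies on chromosome 1, 55237177 to 55240058 on the plus strand in the GRCm38 (mm10) annotation of the files, and shares no exon base with another gene. Its level was 1.44, 1.61 and 2.19 TPM in liver and 9.86, 8.07 and 9.54 TPM in gastrocnemius. The tissues did not overlap, and every muscle was more than 3-fold above every liver. The log2 difference was -2.12, SE 0.18, adjusted p = 9.97e-07, and it was the only mitochondrial synthetase past the 2-fold test on the muscle side (adjusted p = 3.15e-05 against 2-fold). Leaving out each animal gave -1.94 to -2.29. Nars2, for asparagine, was the only one past the 2-fold test on the liver side, at 8.61, 8.87 and 8.65 TPM in liver and 5.04, 4.53 and 4.01 TPM in muscle (log2 difference 1.22, SE 0.14, adjusted p = 9.76e-06), with adjusted p = 0.0428 against 2-fold. Of the 12 alternative settings, Mars2 kept that 2-fold call in 12 and Nars2 in 4, with Nars2 at adjusted p = 0.604 on the TPM scale and 0.495 with DESeq2. Lars2, for leucine, had the highest TPM of the group by far, 1086, 1079.6 and 1237 in liver and 718, 771 and 810.4 in gastrocnemius. Whether all reads counted for Lars2 came from its mRNA was not tested. The cytosolic enzyme for methionine, Mars, had 50.1, 33.7 and 38.6 TPM in liver and 61.4, 59.7 and 64.6 TPM in gastrocnemius (log2 difference -0.35, SE 0.13, adjusted p = 0.032).

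Cytosolic synthetases leaned further to muscle, 15 of 23 against 2 in liver, with a median of -0.69. Aimp2, a scaffold of the multisynthetase complex, had 17.5, 17.9 and 20.7 TPM in liver and 180.0, 201 and 239.7 TPM in gastrocnemius (log2 difference -3.19, SE 0.12, adjusted p = 6.72e-10). Cytosolic ribosomal proteins were near level: 34 of 80 were higher in liver and 5 in gastrocnemius, with a median of 0.21 and 1 past the 2-fold test on each side. Such small medians depend on the scale. Scaling the libraries as TPM does, an alternative chosen after seeing the data, moved the median log2 difference of all tested genes from -0.0094 to -0.28, and upper quartile scaling moved it to -0.13. On the TPM scale 16 ribosomal proteins were higher in liver and 22 in gastrocnemius, with a median of -0.067, and the 17 mitochondrial synthetases became 10 higher in gastrocnemius and 2 in liver. Mars2 had -2.39 on that scale.

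Interferon-stimulated genes were higher in liver than in muscle almost throughout. These are genes that cells switch on through interferon receptors, and the series' title names their response. Of 51 such genes 50 were higher in liver, 45 of them past the 2-fold test, and none was higher in gastrocnemius, with a median of 2.33. Summed, they took 0.165% to 0.183% of TPM in liver and 0.0249% to 0.0281% in gastrocnemius. Bst2, which tethers virus particles, had 445, 389 and 407 TPM in liver and 18.97, 20.7 and 24.6 TPM in gastrocnemius (log2 difference 4.55, SE 0.15, adjusted p = 2.12e-10). Iigp1, an immunity-related GTPase, had 189, 236 and 221 TPM in liver and 3.86, 5.62 and 5.69 TPM in muscle (log2 difference 5.70, SE 0.16, adjusted p = 6.33e-11). Irf7, a factor that amplifies interferon production, had 47.1, 46.9 and 53.4 TPM in liver and 3.81, 3.60 and 6.21 TPM in gastrocnemius (log2 difference 3.74, SE 0.15, adjusted p = 1.09e-09). Ifit1 had 6.72, 12.3 and 7.32 TPM in liver and 1.12, 1.99 and 2.22 TPM in muscle (log2 difference 2.57, SE 0.21, adjusted p = 5.28e-07). Gbp7 was the 1 member that did not pass, at 4.97, 12.8 and 7.78 TPM in liver and 7.82, 6.07 and 7.30 TPM in muscle, where the tissues overlapped.

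The receptors and sensors upstream were divided. Of 20 tested 13 were higher in liver and 5 in gastrocnemius, with a median of 0.83. Ifnar2, a chain of the type I interferon receptor, had 41.2, 36.5 and 36.4 TPM in liver and 2.93, 2.69 and 3.06 TPM in gastrocnemius (log2 difference 3.99, SE 0.13, adjusted p = 1.98e-10). Ifngr2 and the kinase Jak1 went the other way, Ifngr2 at 12.5, 12.9 and 13.1 TPM in liver and 77.3, 78.9 and 75.97 TPM in muscle (log2 difference -2.31, SE 0.11, adjusted p = 6.3e-09) and Jak1 at 30.2, 32.5 and 38.2 TPM in liver and 74.5, 71.7 and 86.95 TPM in muscle (log2 difference -0.93, SE 0.12, adjusted p = 1.88e-05). The count higher in gastrocnemius was 3 without animal 6 and also without animal 9.

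MHC class I presentation, which displays peptides of the cell's own proteins to T cells, was wholly on the liver side: 18 of 18 genes were more than 2-fold higher in liver, with a median of 3.09. The list summed to 0.983% to 1.06% of TPM in liver and 0.0415% to 0.04998% in gastrocnemius. B2m, the shared light chain, had 3450.4, 4189.5 and 2973 TPM in liver and 107, 121 and 128 TPM in gastrocnemius (log2 difference 5.16, SE 0.20, adjusted p = 8.27e-10). H2-K1, a classical heavy chain, had 1849.5, 1985 and 2109.8 TPM in liver and 76.4, 96.3 and 97.2 TPM in muscle (log2 difference 4.74, SE 0.19, adjusted p = 9.77e-10). H2-Q10, a secreted form made by liver, had 2968, 2612 and 3102 TPM in liver and 1.87, 1.83 and 1.37 TPM in gastrocnemius (adjusted p = 4.08e-11). H2-D1, another classical chain, had 678, 695 and 800.1 TPM in liver and 100.2, 117 and 122 TPM in muscle (log2 difference 2.96, SE 0.15, adjusted p = 7.64e-09). Heavy chain genes are close copies, and reads between them could not be split with certainty.

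Most immune cell markers that could be tested were also higher in liver. All 14 Kupffer cell and macrophage markers were higher there, at 0.0431% to 0.0694% of TPM against 0.00992% to 0.0122% in gastrocnemius. Clec4f, which marks Kupffer cells, had 106, 67.2 and 116 TPM in liver and 1 count in all muscles, while C1qa, of macrophages in general, had 102, 62.5 and 102 TPM in liver and 13.7, 14.8 and 12.1 TPM in muscle. In liver both were lowest in animal 8. T cell markers were near 0 in both tissues, at 0.000580% to 0.000637% of TPM in liver and 0.000116% to 0.000129% in gastrocnemius, with 4 of 8 measured too low to test. Of 7 NK cell markers 1 could be tested. Of 6 tested B cell and plasma cell markers 5 were higher in liver and 1 in gastrocnemius, a muscle count of 0 without animal 8 or without animal 9. The 2 neutrophil markers tested were higher in liver. The part of these cells in the interferon and MHC differences was not tested.

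**Figure D5:**
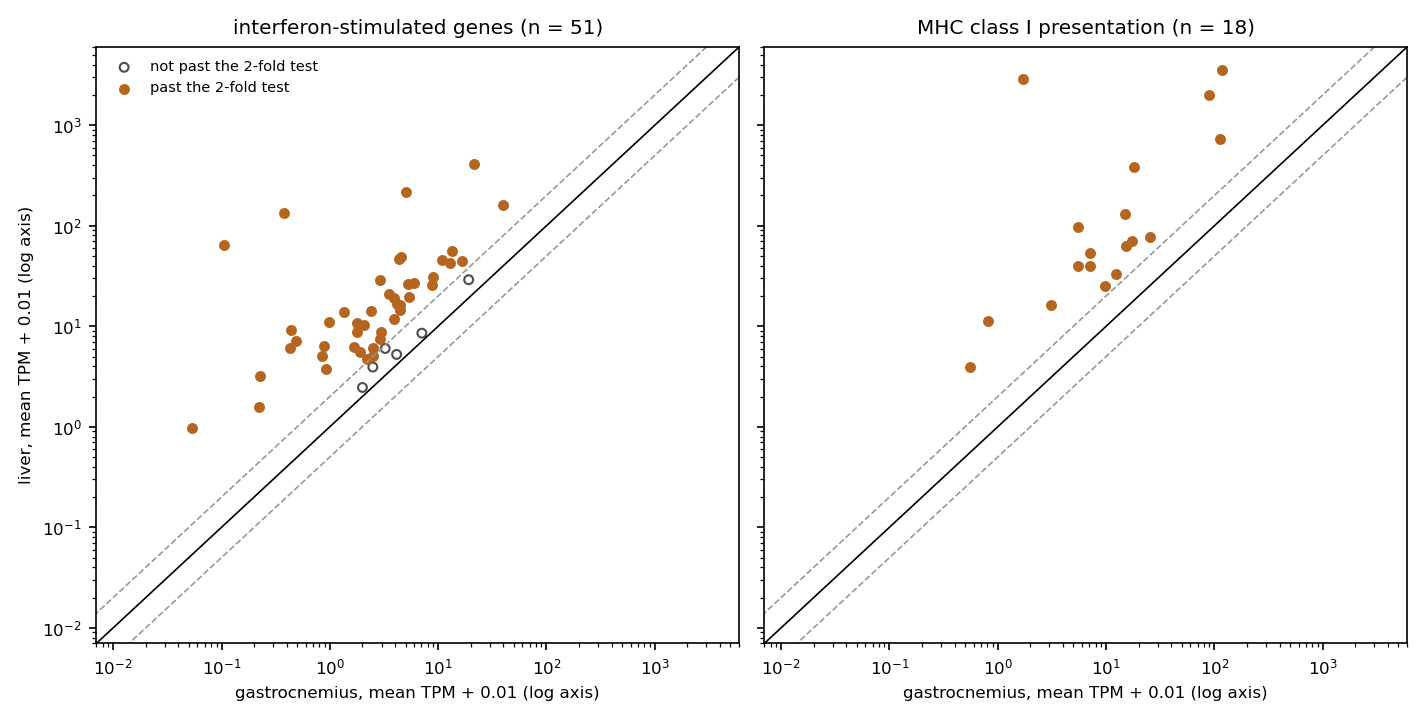
Mean TPM plus 0.01 in liver (y, log axis) against gastrocnemius (x, log axis), with 1 point per gene, for 51 interferon-stimulated genes and 18 MHC class I genes. Filled points passed the 2-fold test, 45 of the 51 and all 18, and these lie above the line of equal levels.

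Hormone genes of liver lay wholly on its side. All 17 tested hormones and growth factors of liver were higher there, with a median of 9.83, or 8.99 with bounds. Igf1, the main effector of growth hormone, had 195, 173 and 165 TPM in liver and 3.92, 1.92 and 3.50 TPM in gastrocnemius (log2 difference 6.16, SE 0.22, adjusted p = 4.32e-10). Hepcidin, Hamp, which limits iron release, had 956, 4554 and 2392 TPM in liver, most in animal 8 and least in animal 6, and 1 count in muscle, a ratio of 43520 with an interval of 7811 to 1719000. Of 24 insulin and IGF signalling genes 14 were higher in gastrocnemius and 5 in liver, or 3 in liver on the TPM scale. Akt2 had 67.4, 57.2 and 76.6 TPM in liver and 249, 272 and 282 TPM in muscle (log2 difference -1.73, SE 0.14, adjusted p = 6.34e-07). Of 19 iron and heme genes 12 were higher in liver and 5 in gastrocnemius. Ftl1, the ferritin light chain, had 5426, 5443 and 4748 TPM in liver and 221, 214 and 263 TPM in gastrocnemius (log2 difference 4.76, SE 0.21, adjusted p = 2.66e-09), whereas the heavy chain Fth1 did not pass the test, at 1599, 1665 and 1609 TPM in liver and 1825, 1954 and 1751 TPM in muscle (log2 difference 0.094, SE 0.17, adjusted p = 0.613). Myoglobin, Mb, the oxygen store of muscle, had 3451, 3891 and 3264 TPM in gastrocnemius and 2 liver counts.

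Protein handling differed by compartment. Of 30 genes of ER translocation and folding 23 were higher in liver, with a median of 1.60. P4hb, protein disulfide isomerase, had 889, 891 and 917 TPM in liver and 167, 159 and 156 TPM in gastrocnemius (log2 difference 2.76, SE 0.16, adjusted p = 2.61e-08). Of 20 cytosolic and small heat shock genes 14 were higher in gastrocnemius. Hspb6 had 16.4, 13.6 and 13.6 TPM in liver and 885, 864 and 1122 TPM in muscle (log2 difference -5.76, SE 0.18, adjusted p = 1.73e-10), and Unc45b, the myosin chaperone, 2.21, 1.69 and 1.76 TPM in liver and 244, 264 and 288 TPM in muscle (log2 difference -6.86, SE 0.19, adjusted p = 6.33e-11). The proteasome differed by small factors, with 13 of 31 higher in gastrocnemius, 7 in liver and a median of -0.22. The 7 became 3 under upper quartile scaling, 1 under TPM scaling and 4 without animal 6 or without animal 8, and the 13 became 20 under TPM scaling.

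Most extracellular matrix genes were higher in muscle. Of 26 collagen and matrix genes 23 were higher in gastrocnemius, while their summed share overlapped, at 0.0969% to 0.108% of TPM in liver and 0.0979% to 0.162% in gastrocnemius. Of 13 stellate cell and fibroblast markers 8 were higher in gastrocnemius and 5 in liver, all 5 past the 2-fold test. In the list of 26 collagen and matrix genes, the 3 higher in liver were Col18a1, fibronectin Fn1 and Bgn. Col18a1 had 328, 355 and 394 TPM in liver and 3.37, 2.65 and 4.79 TPM in muscle (log2 difference 6.95, SE 0.21, adjusted p = 1.27e-10). Fn1 had 279.9, 309 and 385 TPM in liver and 19.9, 17.04 and 20.8 TPM in muscle (log2 difference 4.34, SE 0.18, adjusted p = 1.74e-09). Bgn had 88.02, 93.1 and 69.7 TPM in liver and 37.7, 30.7 and 41.1 TPM in muscle (log2 difference 1.47, SE 0.15, adjusted p = 2.88e-06). All 8 smooth muscle and pericyte markers, all 8 tested adipocyte markers and 7 of 8 Schwann cell markers were higher in gastrocnemius. Adiponectin, Adipoq, had 0.0702, 0.442 and 0.0596 TPM in liver and 25.5, 23.5 and 16.3 TPM in gastrocnemius (log2 difference -6.57, SE 0.35, adjusted p = 1.4e-08), and its log2 difference was -7.86 without animal 8. Tendon markers differed between muscles, at 0.00995% to 0.0239% of TPM. Tnmd had 8.39, 5.34 and 22.4 TPM and Col1a1 64.8, 42.4 and 143 TPM, both highest in animal 9, and Col1a1 had 5.21, 4.73 and 3.96 TPM in liver (log2 difference -3.71, SE 0.31, adjusted p = 5.99e-07). The share of tendon in these Col1a1 values was not tested.

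In liver the endothelium had its own form. All 9 sinusoidal endothelial markers were higher in liver, with Clec4g at 112, 68.3 and 83.2 TPM in liver against 0.149, 0.0624 and 0.142 TPM in muscle (log2 difference 9.72, SE 0.22, adjusted p = 2.56e-11). Of 12 general endothelial markers 7 were higher in gastrocnemius and 2 in liver, or 1 in liver on the TPM scale. Cdh5 had 14.6, 9.34 and 12.96 TPM in liver and 40.2, 40.7 and 51.5 TPM in gastrocnemius (log2 difference -1.58, SE 0.14, adjusted p = 1.48e-06), while Eng had 62.5, 43.1 and 47.5 TPM in liver and 23.2, 26.4 and 32.1 TPM in muscle (log2 difference 1.17, SE 0.16, adjusted p = 4.55e-05). Of 6 tested cholangiocyte markers 5 were higher in liver, Epcam among them at 2.81, 2.55 and 1.82 TPM with 0 counts in muscle. The sixth, Tspan8, was far higher in gastrocnemius, at 1.08, 1.67 and 0.434 TPM in liver and 121, 113 and 102 TPM in muscle (log2 difference -6.50, SE 0.23, adjusted p = 4.44e-10). Pancreatic acinar genes reached 0.00193% to 0.00363% of TPM in liver, with 6 of 8 too low to test.

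Genes of near-equal level were few. For 1265 genes, 8.51% of those tested, the 95% interval of the log2 difference lay within 0.5 of 0. On the TPM scale, where the median of all genes was -0.28, 1163 genes met that rule and 437 of them were shared. Those highest in level included Rplp1, a ribosomal stalk protein, at 1419.5, 1380.0 and 1414 TPM in liver and 1839, 1752 and 1554 TPM in gastrocnemius (log2 difference -0.0095, SE 0.14, adjusted p = 0.95). In TPM its muscle values all lay above its liver values, and on that scale its log2 difference was -0.29 (adjusted p = 0.0689). Uqcrq, a complex III subunit, was at 1460.5, 1140.0 and 1107 TPM in liver and 1251, 1416 and 1318 TPM in muscle (log2 difference 0.16, SE 0.15, adjusted p = 0.339), with overlapping tissues. Gapdh, often used as a reference gene, was not among them, at 1147, 1135 and 1200.2 TPM in liver and 9656, 9209 and 8518 TPM in gastrocnemius (log2 difference -2.70, SE 0.23, adjusted p = 6.76e-07).

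Livers of the 3 animals differed from each other more than their muscles did. Over 3821 genes at 20 CPM (counts scaled to the library total) or more in both tissues, the median log2 range over animals was 0.28 in liver and 0.13 in gastrocnemius, and the range was wider in liver for 3110 genes, 81.4%. A range above 1 was seen in 49 genes in liver and 7 in gastrocnemius. The biological coefficient of variation was 17.4% among livers and 8.12% among muscles. Widest among well-expressed liver genes was Cyp3a16, a P450 of the Cyp3a family, at 6.25, 229 and 10.9 TPM and 0 counts in muscle. A1bg had 234, 1139 and 93.98 TPM and Sult2a1, a steroid sulfotransferase, 130.2, 674 and 72.4 TPM, both highest in animal 8. Slco1a1, an organic anion transporter, ran the opposite way at 60.1, 15.1 and 110.5 TPM, lowest in animal 8.

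A few genes ran in the same order over the animals in both tissues. They were picked after their values were seen, and the share of all genes with such a repeat was not counted. Over all genes, deviations within an animal correlated little. Dbp, a clock-controlled factor, had 20.9, 67.1 and 98.8 TPM in liver and 41.2, 84.5 and 130.3 TPM in gastrocnemius, lowest in animal 6 and highest in animal 9 in both, and the difference did not pass the test (log2 difference -0.28, SE 0.14, adjusted p = 0.0746), whereas on the TPM scale it did (adjusted p = 0.00215). The haemoglobin gene Hba-a1 ran in the reverse order, at 359.6, 219 and 124 TPM in liver and 168, 159 and 67.5 TPM in gastrocnemius (log2 difference 1.09, SE 0.15, adjusted p = 3.75e-05), and so did Hbb-b1, at 573, 383 and 255 TPM in liver and 381, 354 and 179.9 TPM in muscle. Within every animal the liver held more Hba-a1 and Hbb-b1 mRNA than the muscle, and 7 of 7 tested erythroid genes were called higher in liver, a count of 3 without the replicate block. Hba-a1 and Hba-a2 share reads, as do Hbb-b1 and Hbb-bs. Fos, an immediate early gene, was high in the muscle of animal 6 alone, at 7.92, 12.05 and 10.1 TPM in liver and 40.8, 16.9 and 12.2 TPM in gastrocnemius, and its log2 difference of -0.76 (adjusted p = 0.0474) became -0.11 (adjusted p = 0.515) without that animal. The younger age of animal 9 cannot be told apart from other differences between the animals.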

How the data were processed

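RNA from liver and gastrocnemius of 3 wild type mice was sequenced as poly(A)-selected paired-end libraries. Per the submitters' processing notes reads were aligned with STAR 2.4.0 to mm10 (GRCm38) and counted with featureCounts 1.5.2. Per the file headers, the deposited raw counts are fragments over the exons of each gene with no strand option, and a fragment over overlapping genes was counted for each, so antisense and overlapping partners share counts.

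Of 24062 genes listed, 14858 passed the standard filter of edgeR 4.0.16 (R 4.3.3) and were tested with TMM scaling, quasi-likelihood F tests with tissue and animal as terms, and Benjamini-Hochberg adjustment at 0.05, and again for a change above 2-fold. TPM used the deposited exon lengths. For a gene at 0 counts in a tissue the floor was 3 counts over its libraries. Counting intervals are at 95% and cover counting error only. The fits were also run on simulated counts with a profile common to both tissues, in which 200 genes were set to be changed. There edgeR recovered 89.1% of genes changed 2-fold and 100% of those changed 4-fold or 16-fold, and called 0.0833% of unchanged genes. The simulation had equal spread in both tissues and no animal effect. It therefore does not give the error rates of the real comparison, where most genes differ and livers vary more.

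Libraries were paired by the animal number that opens each title. Deviations from the tissue means correlated little within an animal (r over genes of 0.0047, 0.0113 and 0.0408). Between liver and muscle of different animals r ran from -0.0585 to 0.0465, so over all genes the matched pairs did not stand out. Replicates differed beyond counting noise, with a chi-square per degree of freedom of 41.7 to 62.2 among livers and 8.07 to 13.5 among muscles. Alternatives were DESeq2 1.42.0, limma-voom (limma 3.58.1), other scalings and filters, no replicate block, and leaving out each animal. A scaling on TPM was added after seeing the data. Named genes are Mars2, the 15 highest of each direction past the 2-fold test, up to 5 members of each list by level, the genes of the pairs, the 10 highest of near-equal level, the 8 of widest range in each tissue, and genes at 0 counts in 1 tissue with 20 CPM or more in every library of the other. The comparison, lists and pairs were chosen with earlier results of these data known. Libraries of the mutant genotype were left out. Results of some genes that this rule names, and the pairs and glycolysis steps that hold them, are not reported here.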

Additional observations from a re-analysis of the deposited data

How the results depend on the processing

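Under all 12 alternative settings the numbers of genes called stayed within 1.5 times the main counts of 12033 and 7077, and no gene was called in opposite directions. Calls ranged from 9160 of 11044 genes with a stricter filter to 12993 of 19402 with none. Leaving out 1 animal gave 11286 to 11885 calls and 6762 to 7067 past the 2-fold test. Without the replicate block 12113 genes were called, 11925 of them shared with the paired fit. DESeq2 called 11352, with 5915 past the 2-fold test. The share of calls higher in liver was 50.1%, 46.4% with upper quartile scaling and 42.1% on the TPM scale. Of 535 named genes, 516 kept direction and side of the threshold on the TPM scale, 11 crossed the threshold and 8 uncalled ones changed sign. Without animal 6, 8 or 9, 6, 8 and 8 named genes lost their call. Median signs turned for mitochondrial carriers (0.066 to -0.21 on the TPM scale, -0.056 with upper quartile scaling, -0.011 without animal 8) and cytosolic ribosomal proteins (0.21 to -0.067 on the TPM scale), and for cholangiocyte markers with the stricter filter, where fewer genes were tested. The count of erythroid genes higher in liver was 7 with the pairing and 3 without the replicate block. With the stricter filter fewer members of lists at low level were tested, and 6 Hox genes were higher in gastrocnemius in place of 22. Genes at a few counts in 1 tissue have sizes set by counting error.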
